A study of Mus musculus with 4 samples.

Results

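The Nlrp1 cluster of mouse chromosome 11 was described from 13 of the 170305 genomic probes of the array, which together hold 3 of its 20749 gene names. Nlrp1b had 6 probes, DQ117583 had 1, Nlrp1c had 5, and 1 probe in the same 150 kb carried no gene name. The genes were chosen by their log2 ratio, which was known to be low in these tumours, so the ratios of the 13 probes are given as a description and no test result is given for them. They stayed in the fit over all probes and in its background counts. Genomic DNA of 4 liver tumours was hybridised in red (Cy5) against reference DNA in green (Cy3), with 1 array for each tumour. A negative log2 ratio means less signal from the tumour sample than from the reference at that probe. Whether a difference in the sequence under a probe, and not in its amount, lowered the signal was not tested.

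The tumours came from 4 separate untreated male mice on the C57BL/6J background whose Trp53 loss was specific to the liver, and they are labelled Trp53-/-. The reference is given as spleen and is also labelled Trp53-/- and male. The series' design describes it as a pool from 3 littermates of the tumours' sex, while the labelling protocol names liver. The ratio at Trp53 was not used as a check of the genotype. Both channels carry the label Trp53-/-, the reference tissue is given as spleen and as liver, and the deleted part of Trp53 is not given. The age of the mice, the driver of the liver-specific deletion and the share of tumour cells in each sample are not given in the sources used here. All 4 tumours form 1 group, and no array of other tissue or genotype was used here beside them. DNA from non-tumour tissue of each tumour-bearing mouse was not analysed here, so a difference between the mouse and the reference pool and a loss in the tumour cannot be told apart for any single tumour.

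NLRP1 proteins are cytosolic sensors. When the N-terminal part of the protein is degraded, its C-terminal part is freed and assembles an inflammasome, which activates caspase-1, leads to the release of inflammatory interleukins and can kill the cell by pyroptosis. In mice the family lies as a tandem array of paralogues. Nlrp1b is the member cleaved by anthrax lethal factor, it differs between inbred strains, and these differences set how their macrophages respond to the toxin. The arrays measured DNA and give no level of any of these proteins or transcripts.

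On the array's mm9 positions the genes followed each other as Nlrp1a, Nlrp1b, DQ117583 and Nlrp1c. RefSeq (GRCm38.p6, used here for names, order and strand) gave the order Nlrp1a, Nlrp1b and Nlrp1c-ps, listed Nlrp1b as protein coding on the minus strand, and listed Nlrp1c as a transcribed pseudogene. DQ117583 was not matched there. Whether a probe is exonic or intronic is not given, since mm9 gene models were not used here. The probes are numbered 1 to 13 in order of position. The sequences below are those at both ends of the low stretch (probes 2, 3 and 13 and the next probe to the right), the probe with the lowest mean ratio (probe 6), the single DQ117583 probe (probe 7), and the probe of Nlrp1c measured in every tumour (probe 12). They are 60 bases long, are copied from the array files 5′ to 3′, and are all in lower case because no stretch of them is singled out.
Probe 2, Nlrp1b, outside the low run, chr11:70976924-70976983: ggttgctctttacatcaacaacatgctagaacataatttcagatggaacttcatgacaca
Probe 3, Nlrp1b, first of the low run, chr11:70989862-70989921: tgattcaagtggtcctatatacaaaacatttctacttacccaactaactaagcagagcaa
Probe 6, Nlrp1b, chr11:71032791-71032850: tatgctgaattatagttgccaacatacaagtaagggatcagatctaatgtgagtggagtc
Probe 7, DQ117583, chr11:71045491-71045550: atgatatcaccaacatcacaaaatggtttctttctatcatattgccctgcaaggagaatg
Probe 12, Nlrp1c, chr11:71096957-71097016: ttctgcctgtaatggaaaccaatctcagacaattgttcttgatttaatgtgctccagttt
Probe 13, no gene name, last of the low run, chr11:71107044-71107103: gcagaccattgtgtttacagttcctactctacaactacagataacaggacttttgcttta
Next probe to the right, no gene name, chr11:71121491-71121550: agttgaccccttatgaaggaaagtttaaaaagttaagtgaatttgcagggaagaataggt

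Probes 3 to 13 formed a single unbroken run of 11 low probes in every tumour, covering part of Nlrp1b, DQ117583 and all probes named Nlrp1c. The mean log2 ratio of the run was -3.74 ± 0.39, -4.37 ± 0.42, -5.05 ± 0.39 and -4.11 ± 0.41 in tumours 1 to 4 (SE over 11 probes, which is a spread between probes and not between samples). Over the tumours it was -4.32 ± 0.55 (SD, n = 4). Tumours 2 and 3, which had the lowest means, were also on the dimmest arrays. The median background-subtracted red signal of genomic spots was 1163, 528, 522 and 1286 in tumours 1 to 4. In the run, 3, 6, 7 and 4 probes had a tumour signal not well above background. Whether array brightness set the order of the tumours was not tested. The mean over the 8981 other probes of chromosome 11 was 0.04, -0.04, -0.04 and -0.03 in tumours 1 to 4, so the run stood far below its own chromosome on each array. All 11 probes were at or below a log2 ratio of -1 in all 4 tumours, a level met by 0.0716% of the array's probes (122 of 170305). At or below -0.5 the count of members was again 11, where 0.279% of all probes met that level. Since this ratio was used to choose the genes, nothing is read from these shares. A log2 ratio of -1 is what loss of 1 of 2 copies in every cell would give against a reference with 2 copies, and the 44 values of the run lay between -7.30 and -1.97.

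**Figure D1:**
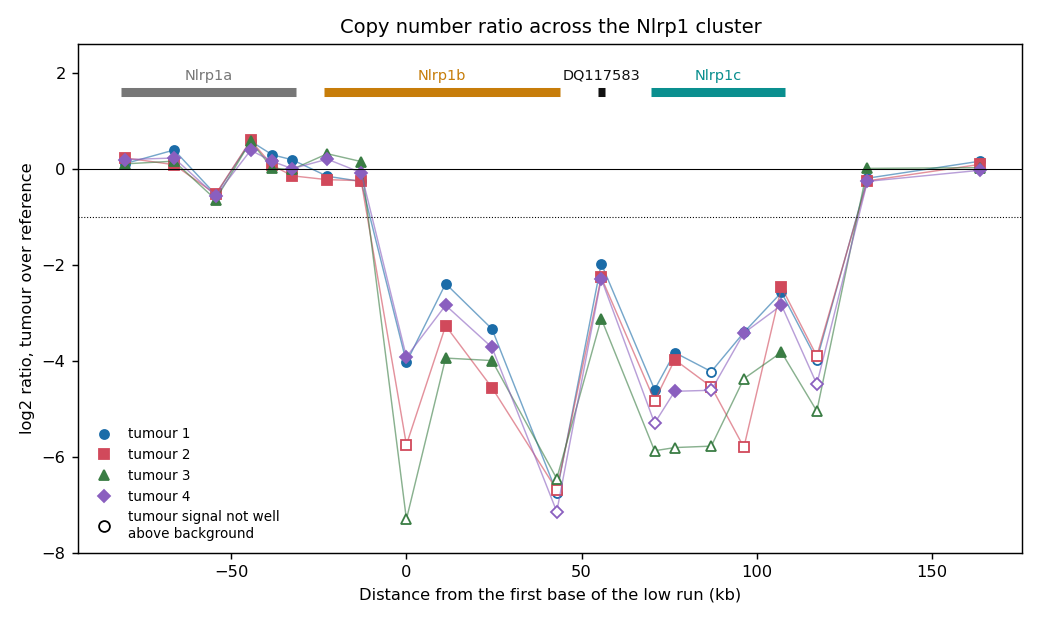
Log2 ratio (tumour over reference) of each probe against its distance in kb from the first base of the low run, 1 line for each of 4 tumours, with the span of the named probes of each gene drawn above and a dotted line at -1. Open points are probes at which the tumour signal was not well above background. The 11 probes of the run lie between -7.30 and -1.97 in all tumours, and the probes next to it on both sides lie near 0.

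Nlrp1b was divided by the left end of the run. Probe 1 (chr11:70967264-70967323) gave log2 ratios of -0.16, -0.23, 0.31 and 0.20 in tumours 1 to 4, and probe 2 gave -0.26, -0.25, 0.15 and -0.08. Tumours 1 and 2 were slightly below 0 at both of these probes and tumour 3 slightly above at both. Probe 3, the next one, gave -4.03, -5.75, -7.30 and -3.92. The tumour signal of probe 3 was not well above background in tumours 2 and 3, so the ratios of those tumours have no firm level there.

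Further into Nlrp1b, probe 4 (chr11:71001060-71001119) gave -2.39, -3.27, -3.94 and -2.84 in tumours 1 to 4. Probe 5 (chr11:71014299-71014358) gave -3.34, -4.56, -4.00 and -3.72. Both were measured above background in every tumour, tumour 1 was the least low at both, and the lowest was tumour 3 at probe 4 and tumour 2 at probe 5. Probe 6 gave -6.75, -6.69, -6.45 and -7.14, the lowest mean of the run (-6.76 ± 0.29, SD, n = 4), but its tumour signal was not well above background in any tumour. For a limit, the tumour signal at probe 6 was set to the lowest one that was well above background on each array. The reference was then 23.5-fold, 22.1-fold, 27.0-fold and 33.3-fold above the tumour. These folds depend on that setting, since another background correction (normexp, used further on) gave probe 6 at -2.47, -2.70, -2.22 and -2.60. Over the 4 Nlrp1b probes inside the run the mean log2 ratio was -4.13, -5.07, -5.42 and -4.41, against -0.21, -0.24, 0.23 and 0.06 over the 2 outside. Averaged over all 6 probes, Nlrp1b stood at -3.18 ± 0.37 (SD, n = 4), a value that mixes both stretches. Given its minus strand in RefSeq and the shared order of the genes, the low probes are those on the 5′ side of Nlrp1b and the probes near 0 are those on its 3′ side.

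DQ117583 lay between Nlrp1b and Nlrp1c and had the weakest reduction. Probe 7 gave -1.97, -2.26, -3.12 and -2.29 in tumours 1 to 4, a mean of -2.41 ± 0.49 (SD, n = 4), or 18.8% of the reference signal on the log2 mean. Its tumour signal was well above background on all 4 arrays. It was the least low of the 11 probes in each of the 4 tumours with the deposited ratios. Another background correction gave another order, which cannot decide this place, as given further on.

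Nlrp1c was low at all 5 of its probes. Probe 8 (chr11:71060724-71060783) gave -4.60, -4.83, -5.87 and -5.30, and probe 9 (chr11:71066482-71066541) gave -3.83, -3.98, -5.81 and -4.64. Probe 10 (chr11:71076914-71076973) gave -4.23, -4.54, -5.78 and -4.61. At these 3 probes the tumour signal was not well above background in 3, 1 and 4 of the tumours, so the tumours were not ranked there. Probe 11 (chr11:71086219-71086278) gave -3.41, -5.80, -4.37 and -3.42, with tumour signals not well above background in 2 of the tumours. Probe 12, flagged well above background in every tumour, gave -2.58, -2.47, -3.82 and -2.84, with tumour 3 the lowest. In tumours 3 and 4 its background-subtracted red signal (32.4 and 132.2) was still below the highest negative control spot (34.1 and 150.8). Over the 5 probes Nlrp1c stood at -3.73, -4.32, -5.13 and -4.16, a mean of -4.34 ± 0.59 (SD, n = 4). With dim probes at their limit the reference was 12.7-fold, 12.1-fold, 20.8-fold and 16.8-fold above the tumour, folds that depend on that setting too. Probe 13, which has no gene name, gave -3.98, -3.90, -5.05 and -4.49, and its tumour signal was not well above background in any tumour.

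The reference signal of the run was well measured throughout, and the tumour signal only in part. The green signal was well above background at 44 of 44 values of the run, whereas the red signal was not at 20 of 44. At 10 of 44 values the red signal was within the 95th percentile of the red signal of the negative control spots of its array. It was no higher than the highest negative control spot at 7, 6, 8 and 8 of the 11 probes in tumours 1 to 4. At 5 of 44 the scanner software had put a surrogate in place of the red signal. The green processed signals of a probe in the run differed by 1.12-fold to 1.33-fold between the highest and the lowest array. None of the spots of the 13 probes was marked as an outlier. At dim probes the depth of the ratio is therefore a limit and not a measured level.

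**Figure D2:**
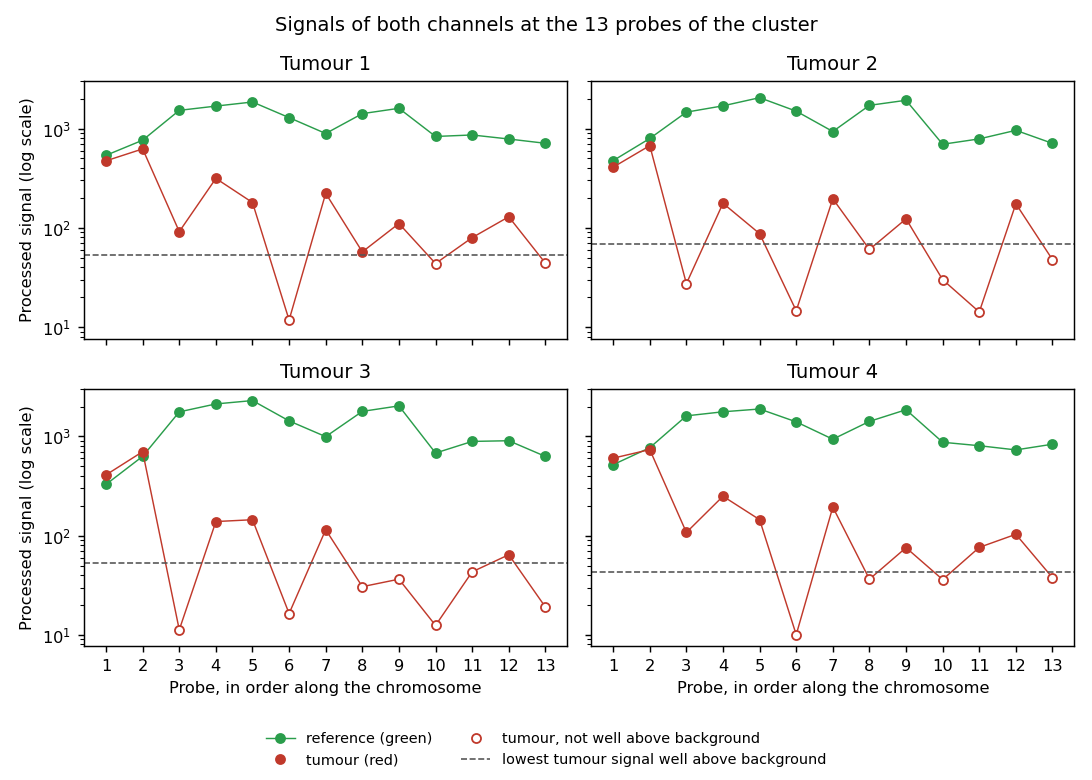
Processed signal (log axis) of the reference in green and of the tumour in red at probes 1 to 13 in order along the chromosome, 1 panel for each tumour. Open red points are not well above background, and the dashed line is the lowest tumour signal on that array that was (53.8, 68.3, 53.4 and 42.6 in tumours 1 to 4). Both channels are close at probes 1 and 2, and from probe 3 on the reference is far above the tumour on each array.

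Depth was therefore also given in ways that treat the dim probes differently. The 4 probes measured in all tumours (probes 4, 5, 7 and 12) had a mean log2 ratio of -2.57, -3.14, -3.72 and -2.92 in tumours 1 to 4, or 16.8%, 11.3%, 7.59% and 13.2% of the reference signal. Tumour 3 was the lowest by these probes and tumour 1 the highest, but they are 4 of the same 11 probes. They were kept for a tumour signal well above background in every tumour, so their mean is biased toward less low ratios. The reference was 5.94-fold, 8.81-fold, 13.2-fold and 7.59-fold above the tumour. Among these probes, probe 12 was below the highest negative control spot in tumours 3 and 4, so its part in their means is near the floor. With all 11 probes and dim ones held at their limit, the reference was 11.2-fold, 12.7-fold, 18.5-fold and 14.6-fold above. After normexp background correction with an offset of 50, which lifts low signals in both channels, the run stood at -2.37, -2.24, -2.28 and -2.42, and tumour 3 was no longer the lowest. All 11 probes were still at or below -1 in all 4 tumours, between -3.40 and -1.23.

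**Figure D3:**
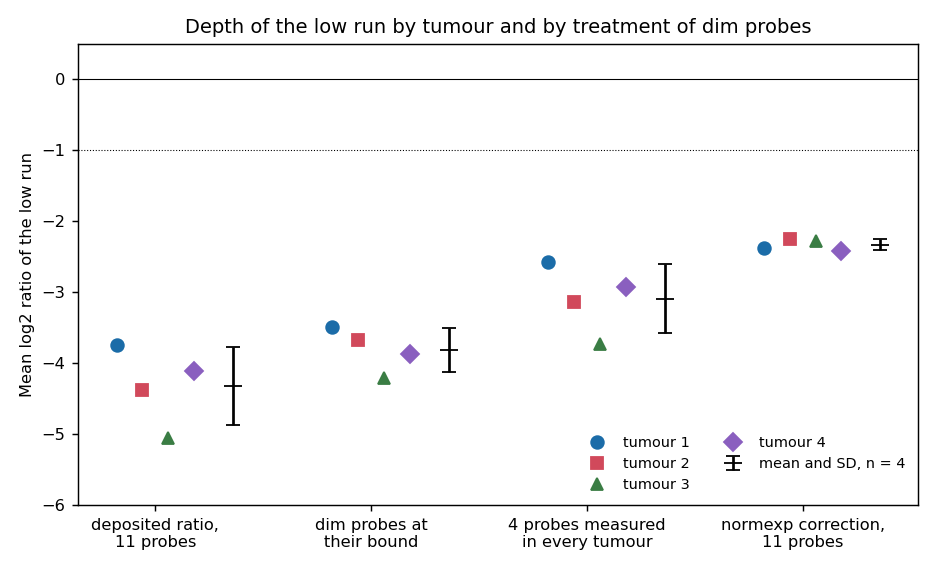
Mean log2 ratio of the low run in each tumour under the deposited ratio, with dim probes at their limit, over the 4 probes measured in every tumour, and after normexp correction. The black bar is the mean and SD over 4 tumours, and the dotted line marks -1. The mean moved from -4.32 with the deposited ratio to -2.33 with normexp, where the tumours lie between -2.42 and -2.24.

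The depth along the run was uneven in every tumour. Over the 11 probes, the ratios of tumours 1 and 4, the pair that shared a slide, correlated with Pearson's r of 0.98. Those of the other 5 pairs had r between 0.72 and 0.81. By Spearman's rank correlation the pair stood out less, at 0.92, beside 0.90 for tumours 1 and 3 and 0.85 for tumours 3 and 4. The remaining pairs had rank correlations between 0.63 and 0.75. This is a description over probes that share sequence, reference and array design, and 20 of the 44 values are dim. The mean ratio of a probe had a correlation of 0.10 with its GC content, which ran from 31.7% to 38.3% in the run around the array's median of 36.7%. The order of the probes depended on the background correction. With the deposited ratios DQ117583 was the least low in all 4 tumours and probe 6 was the lowest in tumours 1, 2 and 4. After normexp the least low was Nlrp1c probe 12 in tumours 1 and 4 (-1.44 and -1.27), Nlrp1c probe 10 in tumour 2 (-1.31) and probe 13 in tumour 3 (-1.23), while DQ117583 gave -1.82, -1.70, -1.81 and -1.86.

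The ends of the run fell between the same probes in each tumour. When a single low interval was fitted by least squares to each tumour by itself, over 2 Mb of chromosome 11, its first base was 70989862 and its last 71107103 in 4 of 4 tumours. The run spans 117242 bp, and the nearest probes outside it are 144507 bp apart at their inner edges. The left end lies in a gap of 12878 bp between probes 2 and 3, both named Nlrp1b. The right end lies in a gap of 14387 bp after probe 13, where the next probe gave -0.20, -0.25, 0.01 and -0.26. The array cannot place either end more closely than these gaps, so equal ends here mean equal to within the probe spacing, which had a median of 10.97 kb between the 13 probes.

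Nlrp1a, the paralogue on the left, was not part of the low run. Its 6 probes (chr11:70909441-70957304) had a mean log2 ratio of 0.17, 0.05, 0.03 and 0.07 in tumours 1 to 4, or 0.08 ± 0.06 (SD, n = 4). Its probe nearest to Nlrp1b, just outside the window of the 13 probes, gave 0.19, -0.15, -0.01 and 0.00. Individual Nlrp1a probes departed from 0 in opposite directions. The probe at chr11:70935403-70935462 gave -0.54, -0.53, -0.64 and -0.56, a mean of -0.57 ± 0.07 (SE) with an adjusted p of 0.018 by limma over all probes. The probe at chr11:70945389-70945448 gave 0.57, 0.59, 0.57 and 0.39, a mean of 0.53 ± 0.07 (SE) with an adjusted p of 0.030. Both were shared by all 4 tumours in direction, and both were small beside the run. To the right, no gene name followed for 225.62 kb, and the first one there, ENSMUST00000100923, gave 0.15, 0.34, 0.14 and 0.12.

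The surroundings of the run were close to 0. Within 1 Mb on each side lay 154 probes that the choice of genes did not use, with a mean log2 ratio of 0.05 on the left and -0.02 on the right, and none of them was at or below -1 in all 4 tumours. Of these, 4 passed limma's moderated test of the mean against 0 with Benjamini-Hochberg adjustment over all probes (2.6%, with 3 lower and 1 higher), where 0.727% of all probes passed (1238 of 170305, with 1105 lower and 133 higher). Beside the Nlrp1a probes they were named BC048402 (mean -0.72, adjusted p = 0.036 by limma) and Pitpnm3 (mean -0.66, adjusted p = 0.010 by limma), chosen for naming after their values were seen. The counts rest on single tumours. Without tumour 3, 34 flanking probes and 38199 of all probes passed, and without tumour 1 the counts were 2 and 767. Without tumour 2 they were 0 and 137, and without tumour 4 they were 0 and 186. After normexp they were 43 and 40767.

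**Figure D4:**
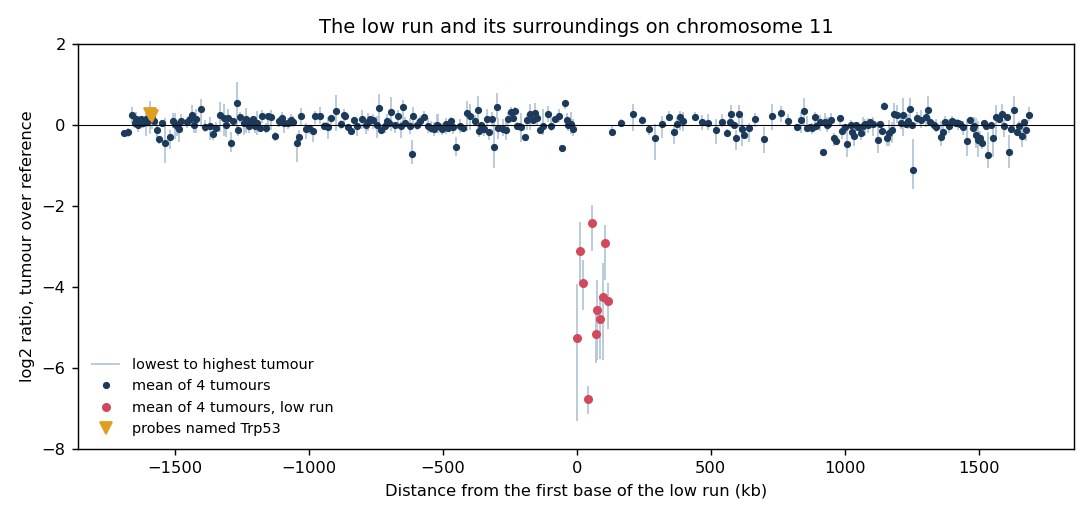
Log2 ratio against distance in kb from the first base of the low run on chromosome 11. Points are means of 4 tumours, red in the run, and thin bars run from the lowest to the highest tumour. Probes named Trp53 are marked by a triangle, on the left of the plot. The mean of the 1 Mb flanks is 0.05 on the left and -0.02 on the right, against -4.32 in the run.

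The run lies on the same chromosome as Trp53, 1585117 bp beyond the last of the 2 probes named Trp53. The 145 probes between them had a mean log2 ratio of 0.11, 0.06, -0.06 and 0.03 in tumours 1 to 4, and 0 of them were at or below -1 in all tumours. The run is thus separated from Trp53 by a stretch near 0 on each array.

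Across the array, low stretches shared by all tumours were rare. Of the 122 probes at or below -1 in all 4 tumours, 111 were autosomal, and 11 of these were the run. The autosomes held 1 run of 2 or more neighbouring probes of this kind, which is the one described here. The other 100 autosomal probes stood singly, the lowest with a mean of -4.91. Since the genes were chosen by this ratio, these counts are a description only. The other 2 runs on the array, of 9 and 2 probes, were on the Y chromosome, with mean log2 ratios of -3.56 and -2.36. At or below -2 in all tumours were 20 probes (0.0117%), of which 12 were autosomal and 10 lay in the run. The run also held 3 of 7, 6 of 35, 7 of 29 and 4 of 14 of the autosomal probes whose tumour signal was not well above background in tumours 1 to 4. For inheritance against tumour loss, the measurements are thus a run with the same ends in 4 tumours of separate mice. Each was read against pooled reference DNA, and whether 1 pool served all 4 arrays was not established here. A shared pool would give any difference in it the same ends on each array. The log2 ratios of the run lay below the -1 that loss of 1 of 2 copies would give, and the reference signal was well above background. These arrays cannot tell a loss that arose in each tumour from a variant in the mice or in the reference pool.

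Among gene items with no probe in the 150 kb of the cluster, those most like the run over the 4 tumours, by Euclidean distance between their log2 ratios and the run's means, were the Y-linked Usp9y, Kdm5d and Ddx3y, at distances of 6.995, 7.01 and 7.06. Usp9y, the first of them, gave -3.58, -1.06, -0.26 and -0.23 in tumours 1 to 4, low mainly in tumour 1. In tumours 3 and 4, Kdm5d gave -0.18 and -0.25, and Ddx3y gave -0.26 and -0.17. Even these nearest items thus did not share the depth of the run in tumours 3 and 4. The Y run of 9 probes named above was not compared as a gene item, and like the run it was low in all 4 tumours. A gene item here is the mean over all probes in the stretch that its named probes cover, widened by 50 kb on each side.

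Other genes of the inflammasome pathway did not pass the test. The list held 32 genes that act with or beside NLRP1: other sensors (such as Nlrp3, Nlrc4 and Aim2), caspases, interleukins and their receptors, and the peptidases Dpp8 and Dpp9, which restrain NLRP1. Of these, 27 were measured, and Nlrp12, Pycard, Gsdmd, Il1b and Txnip had no item. Of the 26 with no probe in the low run, 0 passed limma after Benjamini-Hochberg adjustment over all gene items, 5 had an unadjusted p below 0.05, and 17 were negative and 9 positive. Of all items, 0.0433% passed (9 of 20795, with 4269 below 0.05 unadjusted), a count that was 0 without tumour 2 and 3 without tumour 4. The median of the list was -0.02, beside -0.005 for all items.

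Il18, which encodes an interleukin matured by caspase-1, had the lowest item among these 26. Over 11 probes, of which 1 is named Il18, it gave -0.42, -0.40, -0.26 and -0.17, a mean of -0.31 (adjusted p = 0.19 by limma). The item of Nlrp1a was lower, at -0.60, but its flank takes in probes of the run. The single probe named Il18, taken without its flanks, gave -1.29, -1.63, -1.37 and -1.35, a mean of -1.41 (adjusted p = 0.0081 by limma), and was low in 4 of 4 tumours. This was the 1 gene of the list that passed when the flanks were left out, on 1 probe, where 30 of all gene items passed. That probe is 1 of the 100 autosomal probes that stood singly at or below -1 in all 4 tumours. The 5 measured members on chromosome 9 (Casp1, Casp4, Il18, Dpp8 and Panx1) all had negative means, from -0.31 to -0.08. How far the Il18 item rests on its single named probe or on a shift shared along chromosome 9 was not tested. Nek7, a kinase that binds NLRP3, had the highest mean, 0.07. Among 18 further genes of the wider family of NOD-like receptors, 16 were measured and 0 passed limma (2 below 0.05 unadjusted), with means from -0.12 for Nlrp9b to 0.12 for Nod2. Copy number across these related genes outside the cluster lay between -0.31 and 0.12 by item mean, beside -2.38 for the Nlrp1b item and -3.93 for the Nlrp1c item, whose flanks also take in probes near 0.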

How the data were processed

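Genomic DNA of 4 tumours and reference DNA were measured on 2-colour Agilent arrays. Per the file headers, the deposited ratios are log10 of red over green, made from signals that were background-subtracted and scaled linearly between dyes. The submitters' processing notes name Agilent Feature Extraction 10.7.3.1. Processed and raw signals of both channels are deposited as intensity values. A value table for all arrays, deposited as log10 too, equalled these ratios at 100% of features. Probe positions are mm9, per the file headers. Tumours 1 and 4 shared a slide.

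Ratios were turned to log2, control and outlier spots (93 to 126 per array) were left out, repeated spots were averaged by probe, and arrays were centred on their autosomal median. Noise between neighbouring probes had an SD of 0.26, 0.32, 0.16 and 0.17, and at least 99.96% of genomic spots were well above background. At dim probes a limit was set from the lowest red signal well above background. Means were tested against 0 with limma 3.58.1 in R 4.3.3 (Benjamini-Hochberg under 0.05), tested on simulated data; other steps used Python 3.11.15. The pool's own spread is left out of these tests, and the number of arrays limits their precision.

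Genes named were Nlrp1b, Nlrp1c, DQ117583, their nearest named neighbours, list members that passed or had the lowest or highest mean, Trp53 for its distance, and the 3 items most alike. The members and lists were chosen with earlier results of these data known. Alternatives were normexp, mode centring, limits at dim probes, only probes above background, GC correction, outlier spots kept, the value table, other thresholds, windows and flanks, and each tumour left out.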

Additional observations from a re-analysis of the deposited data

Results flagged for a closer look

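The Nlrp1a probe at chr11:70945389-70945448, left of the low run, gave a log2 ratio of 0.39 in tumour 4, away from the 0.57 to 0.59 of the other 3 tumours. The gap between tumour 4 and the nearest other tumour was 0.912 of the range of the 4 values, above the level of Dixon's test for 4 samples. Such a gap is met by chance in about 1 in 20 groups, and 28 groups were tested.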

How the results depend on the processing

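The mean log2 ratio of the low run, -4.32, moved to -2.33 with normexp and to -3.09 over the 4 probes well above background in every tumour. It stayed within 1 SD of its value under the other settings and was -4.51 to -4.07 with each tumour left out. The count of 11 probes at or below -1 was 10 at a threshold of -2, and the ends were the same in 4 of 4 tumours under normexp, with limits at dim probes and in a 1 Mb window. The count of flanking probes that passed limma, 4, was 43 with normexp, 2 with flanks of 0.5 Mb, and 0 to 34 with each tumour left out. Over all probes, 1238 became 40767 with normexp and 137 to 38199 with each tumour left out. For the inflammasome list 0 became 1 with no flank, and for all gene items 9 became 30 with no flank and 0 to 9 with each tumour left out. The normexp offset lifts low signals, and the 4 probes leave out those with dim tumour signals. Both settings therefore make the mean of the run less low. The cause of the changes in the counts was not tested. Slide as a random block could not be fitted, since 4 arrays on 3 slides gave an estimate of the correlation at 0 of 500 probes tried. No paired analysis was possible because the tumours form a single group. Signal not flagged well above background limits the depth at 20 of the 44 values of the run. Some further values lay within the range of the negative control spots.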
